A study of Homo sapiens with 6 samples.

Results

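The genes described here are direct targets of β-catenin and its TCF partners, together with feedback genes of the Wnt pathway, in SW480 cells. SW480 is a human colorectal adenocarcinoma line that carries mutant APC. The 10 genes were chosen by name, as AXIN2, LGR5, ASCL2, NKD1, RNF43, ZNRF3, NOTUM, SP5, TCF7 and LEF1, and were looked up by Ensembl identifier among the 59192 features of the deposited table. A row was found for 6 of the 10. AXIN2, ASCL2, RNF43 and LEF1 had no row under their identifiers, and since the 33265 features named by a transcript assembler carry no gene name here, these 4 genes were not analysed here. Of the 6 genes with a row, 5 passed the minimum of 10 normalized counts on average, and NOTUM did not.

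The study compared SW480 cells in which HPSE, the gene of heparanase, was targeted with control cells, to find genes linked to invasion. Heparanase cuts the heparan sulfate chains of proteoglycans, and the study used 3 libraries of each cell line, from independent experiments. The knockdown cells, SW480-45 in the sample labels, expressed Cas9 from a puromycin-selected lentivirus and carried a second lentivirus with EGFP and a guide RNA against HPSE. They were taken as the line that the study calls SW480-KD1, the one knockdown line it names for sequencing. The control cells, SW480-NC, carried the same Cas9 and a control guide, so that both lines share Cas9, EGFP and the mutant APC of SW480. Whether the lines are single clones is not given in the sources used here, and with 1 knockdown line the targeting of HPSE and other differences of that line cannot be told apart.

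In the canonical Wnt pathway, a destruction complex built on APC and the AXIN scaffolds marks β-catenin for degradation. When Wnt ligands bind their receptors, or when APC is lost, β-catenin accumulates, enters the nucleus and drives transcription with the TCF and LEF factors. Many of its targets act back on the pathway. LGR5 is a receptor for R-spondins and marks stem cells of the intestinal crypt, while ZNRF3 and RNF43 are ubiquitin ligases that remove Wnt receptors from the cell surface. NOTUM is a secreted enzyme that removes the lipid of Wnt ligands, NKD1 binds Dishevelled and dampens the signal, SP5 is a zinc finger repressor of Wnt targets, and TCF7 is itself a TCF factor. Wnt ligands bind heparan sulfate proteoglycans at the cell surface.

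The libraries held 33221323 to 39802365 reads in SW480-45 and 34454334 to 37111636 in SW480-NC. HPSE had 136, 172 and 146 normalized counts in SW480-45 replicates 1 to 3 and 270, 295 and 246 in SW480-NC (log2 fold change −0.83). It missed the threshold in limma (adjusted p = 0.0547) and edgeR (adjusted p = 0.0664) and passed in DESeq2 (adjusted p = 0.000948). These are RNA levels. The paper judged the knockdown by western blot of the protein and reports that its guides lowered HPSE efficiently. Of 10 markers of colon epithelium, 8 had a row and 7 were tested. EPCAM, a defining surface protein of epithelium, had 16775 to 18783 normalized counts. CDX2, the intestinal identity factor, was far lower, at 19.0 to 40.3 normalized counts. CDH17, the marker with a row that was not tested, had 3 reads in SW480-NC replicate 3 and 0 in every other library. The summed level of the 8 markers ran from 123150 to 132077 normalized counts in SW480-45 and from 141385 to 150924 in SW480-NC. KRT8, a keratin, made up most of this sum. Its mean was 75512 in SW480-45 and 87410 in SW480-NC (limma adjusted p = 0.141), so the sum mainly follows that gene. Of the 7 tested, 1 passed in limma, beside 0.802% of all features tested. KRT8 stood at −0.21 and VIL1 at 0.20 on the log2 scale. KRT20, a keratin of differentiated colonocytes, fell, with 7952 ± 619 (SD, n = 3) normalized counts in the control and 4540 ± 82.3 (SD, n = 3) in the knockdown cells (log2 fold change −0.81, limma adjusted p = 0.00719). Its call was kept in the 6 fits that each leave out 1 library (limma adjusted p from 0.0127 to 0.0451). The call was lost without an intensity trend (limma adjusted p = 0.0859) and with the replicate number as a block (limma adjusted p = 0.0610). Of 10 markers of leukocytes, fibroblasts, endothelium and enteroendocrine cells, 5 had a row, with a summed level of 264 to 396 in SW480-45 and 221 to 278 in SW480-NC. Of these, 3 were tested and 0 passed in limma, edgeR or DESeq2. An unadjusted limma p under 0.05 was reached by 1 of the 3, and by 16.2% of all features tested. That gene, COL1A1, a collagen of fibroblasts, had 342, 359 and 226 normalized counts in SW480-45 and 252, 205 and 198 in SW480-NC, so that the lines overlapped (log2 fold change 0.48, limma adjusted p = 0.297). PECAM1 and VWF, both of endothelium, stood at 0.67 and 1.65 on the log2 scale, from at most 30.6 and 19.0 normalized counts in any library, and VWF was at 0 in SW480-NC replicate 2. None of the 5 was at 0 in all 6 libraries. The part of these markers in the results was not tested.

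Per kilobase of annotated exon, ZNRF3 and LGR5 were the highest of the 6 genes and NOTUM the lowest, and the order was the same in both cell lines. In SW480-NC the normalized count per kilobase was 352 ± 223 (SD, n = 3) for ZNRF3 and 338 ± 19.2 (SD, n = 3) for LGR5. The other genes followed with 86.2 ± 38.7 (SD, n = 3) for TCF7, 28.4 ± 2.32 (SD, n = 3) for SP5 and 5.97 ± 6.69 (SD, n = 3) for NKD1. In SW480-45 the same level was 361 ± 222 (SD, n = 3) for ZNRF3 and 234 ± 10.1 (SD, n = 3) for LGR5. The libraries of ZNRF3 and LGR5 overlapped in both lines, so these neighbours in the order did not differ beyond their spread. With this length, every other pair of neighbours was separated in both lines. When the length of the longest transcript was used instead, LGR5 stood above ZNRF3 in SW480-NC but not in SW480-45, and the SW480-45 libraries of TCF7, from 85.2 to 378, overlapped those of LGR5, from 254 to 277. NOTUM rested on 2 or 3 reads in each library, which is within the 3 reads that a count of 0 allows. A fall could therefore not be detected for it at this depth, and no SW480-45 library rose above 3 reads.

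LGR5 was lower in the knockdown cells. LGR5 (ENSG00000139292) lies on chromosome 12, from 71439770 to 71586310 on the plus strand of GRCh38 in the GENCODE 29 annotation. It had 1226, 1173 and 1279 normalized counts in SW480-45 replicates 1 to 3, against 1860, 1798 and 1663 in SW480-NC. All 3 knockdown libraries lay below all 3 control libraries, and within each line the highest library was at most 1.12 times the lowest. The control mean was 1774 ± 101 (SD, n = 3) and the knockdown mean 1226 ± 53.1 (SD, n = 3), and 69.1% of the control level was left. On log2(normalized count + 1) LGR5 fell by 0.53 (standard error 0.08, 95% interval −0.72 to −0.34, limma adjusted p = 0.0426). The two-sided exact permutation test over the 6 libraries gave p = 0.1, the smallest p that 3 libraries against 3 allow. LGR5 was the 1 member called at an adjusted p under 0.05, among 5 tested, while 0.802% of the 21703 features tested were called in either direction, 0.332% were called higher and 0.470% were called lower. As these are bulk libraries, fewer cells with LGR5 and less LGR5 RNA per cell cannot be told apart.

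The size of the LGR5 difference was stable, but its call was not. In the 6 fits that each leave out 1 library, the log2 fold change ran from −0.58 to −0.50, and the limma adjusted p was above 0.05 every time. It was 0.163, 0.139 and 0.0892 without SW480-45 replicates 1 to 3, and 0.138, 0.156 and 0.0572 without SW480-NC replicates 1 to 3. On the reads recovered from the table, LGR5 passed in edgeR (adjusted p = 0.0458) and in DESeq2 (adjusted p = 0.000266), and it did not pass in limma without an intensity trend (adjusted p = 0.137). An antisense gene, AC078860.1, shares 208 exonic bases with LGR5, and without strand its reads could not be told from those of LGR5. Its own row held 3.61 to 11.7 normalized counts in the 6 libraries, far under the LGR5 level.

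**Figure D1:**
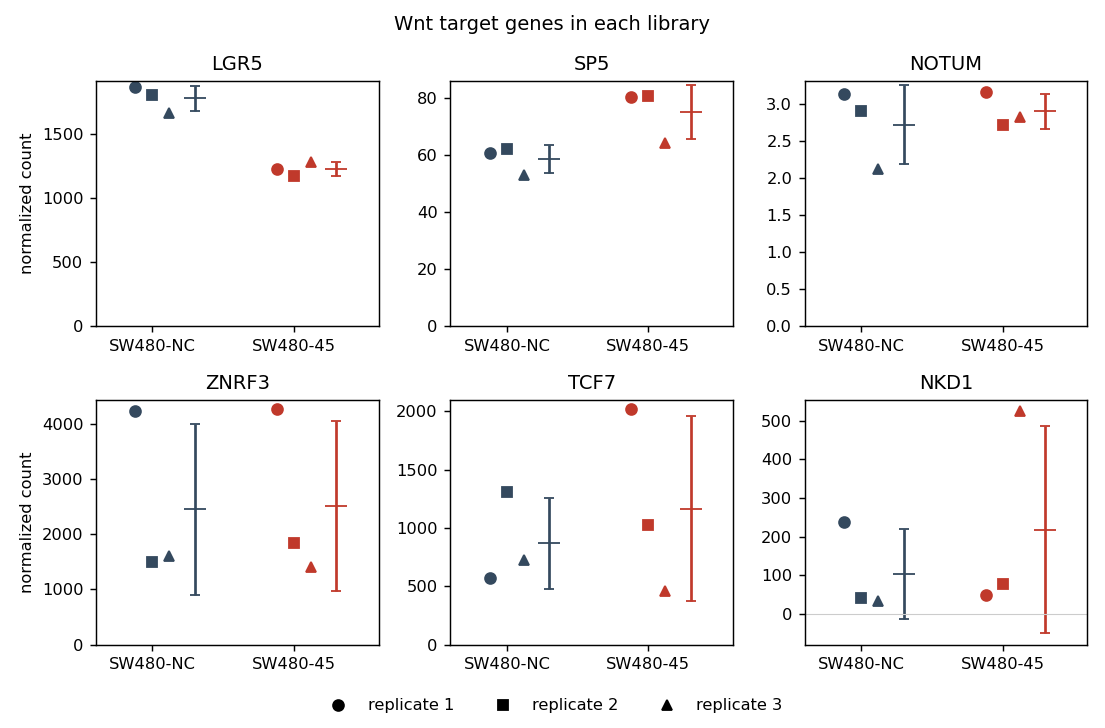
Normalized counts (y axis, linear, from 0) of 6 Wnt target genes in the 3 SW480-NC and 3 SW480-45 libraries (x axis). Points are libraries, shaped by replicate, and bars are the mean and SD. LGR5 is lower in each SW480-45 library, from 1173 to 1279 against 1663 to 1860, whereas in ZNRF3, TCF7 and NKD1 the libraries of one line differ more than the lines do.

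**Figure D2:**
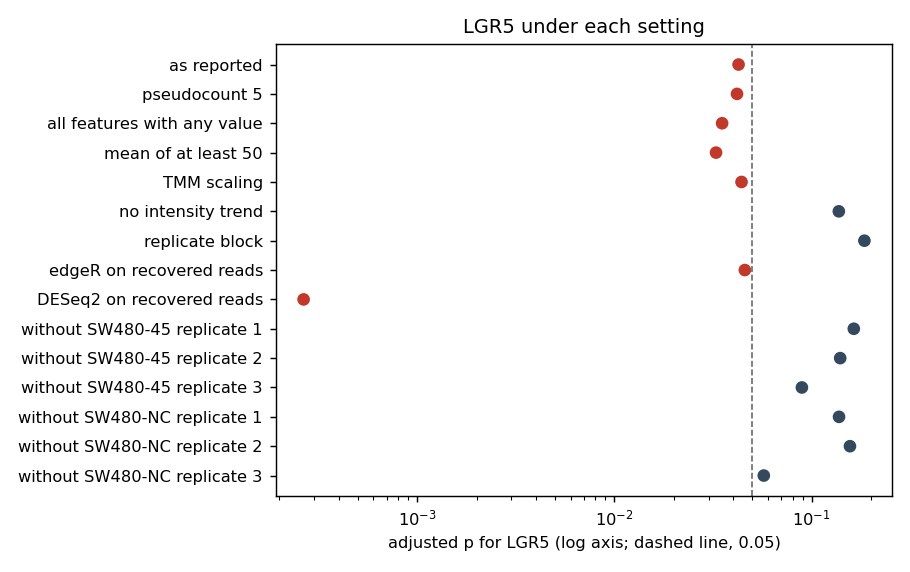
Adjusted p for LGR5 (x axis, log scale) as reported and under each of 14 alternative settings (y axis), with a dashed line at 0.05. The value runs from 0.000266 in DESeq2 to 0.185 with the replicate number as a block, and all 6 fits that leave out a library lie to the right of the line.

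The genes whose profile over the 6 libraries was nearest to that of LGR5 were ELL2, LINC00941, KITLG, NUDT4B and ZNF367. Nearness was the root mean square distance between log2(normalized count + 1) values centred on the mean of each gene, and it ran from 0.0320 for ELL2 to 0.0443 for ZNF367. Their log2 fold changes, between −0.53 and −0.48, follow from this choice and are a description. KITLG is the ligand of the KIT receptor, and reads of NUDT4B can be shared with its near copy NUDT4.

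SP5 (ENSG00000204335) lies on chromosome 2, from 170715351 to 170718078 on the plus strand. The 250 bases before its RefSeq start in GRCh38.p14, at chr2:170715087-170715336, are shown because they hold several copies of heptamers of the kind that TCF and LEF factors bind. The letters searched were CTTTG followed by AA, AT, TA or TT, on either strand. Overlapping matches were each counted, and matches are in capitals.
SP5 promoter, 5′ to 3′: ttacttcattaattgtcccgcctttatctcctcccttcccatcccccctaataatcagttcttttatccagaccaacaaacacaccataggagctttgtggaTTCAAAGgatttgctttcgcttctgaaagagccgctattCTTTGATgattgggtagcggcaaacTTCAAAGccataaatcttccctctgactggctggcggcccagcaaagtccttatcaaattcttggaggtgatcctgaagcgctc
The 3 matches begin 148, 109 and 84 bases before the start, with 1 on the plus strand and the other two on the minus strand. Of the 35116 windows of the same length in the RefSeq table, 11.96% held at least 1 match and 0.122% held at least 3. Among the 10 genes, 4 had a window in that table. SP5 held 3 matches in its window, TCF7 had 0 matches in one of its promoters and 1 in the other, and LEF1 and RNF43 had 0. A match of letters is a description and does not show that a factor binds there.

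SP5 stood slightly higher in the knockdown cells without passing the test. It had 80.1, 80.4 and 64.1 normalized counts in SW480-45 and 60.7, 61.8 and 53.0 in SW480-NC. The lowest knockdown library lay just above the highest control library. The means were 74.9 ± 9.35 (SD, n = 3) and 58.5 ± 4.78 (SD, n = 3) (log2 fold change 0.35, 95% interval −0.08 to 0.78, limma adjusted p = 0.401). The exact permutation test gave p = 0.1, again the smallest possible. Of the 5 members tested, LGR5 and SP5 had libraries that did not overlap between the lines, while the lines were apart in 23.4% of the 21703 features. They differed in opposite directions. Over the 5 members the median log2 fold change was 0.27, beside 0.00 over all features, with 4 of the 5 above 0. That median is the value of TCF7, and the signs of ZNRF3, TCF7 and NKD1 turned when single libraries were left out.

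ZNRF3, TCF7 and NKD1 varied so much between libraries of one line that a difference between the lines could not be resolved. ZNRF3 (ENSG00000183579), on chromosome 22 from 28883592 to 29057487, had 4281, 1851 and 1417 normalized counts in SW480-45 and 4246, 1508 and 1607 in SW480-NC. One library of each line was high and its other libraries were low, and the lines overlapped throughout. The highest library was 3.02 times the lowest in SW480-45 and 2.82 times in SW480-NC. These values rested on 1504 to 4060 reads per library, so that counting error was small beside this spread. The log2 fold change of ZNRF3 was 0.04, with a 95% interval from −1.12 to 1.20 (limma adjusted p = 0.976). It was below 0, from −0.43 to −0.18, without SW480-45 replicate 1, SW480-NC replicate 2 or SW480-NC replicate 3.

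TCF7 (ENSG00000081059), on chromosome 5 from 134114711 to 134151865, had 2020, 1024 and 455 normalized counts in SW480-45 and 571, 1308 and 722 in SW480-NC. Its highest and its lowest library were both knockdown libraries, and the highest was 4.44 times the lowest. The log2 fold change was 0.27 (95% interval −0.95 to 1.49, limma adjusted p = 0.839), and without SW480-45 replicate 1 it was −0.25. TCF7 shares 210 exonic bases with SKP1 on the opposite strand, and SKP1 had no row of its own.

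NKD1 (ENSG00000140807), on chromosome 16 from 50548330 to 50649249, had 48.5, 78.6 and 526 normalized counts in SW480-45 and 238, 40.6 and 32.9 in SW480-NC. SW480-45 replicate 3 was 10.8 times the lowest knockdown library, and SW480-NC replicate 1 was 7.26 times the lowest control library. The log2 fold change was 0.87 (95% interval −1.47 to 3.21, limma adjusted p = 0.705). Without SW480-45 replicate 3 it was −0.15, so the direction rested on that library. An antisense gene, AC007608.1, shares 67 exonic bases with NKD1, and its own row held 0 to 4.24 normalized counts. The intervals of ZNRF3, TCF7 and NKD1 run from −0.95 or lower to 1.20 or higher, and the p-values do not show that the genes were alike in the lines.

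This spread set ZNRF3, TCF7 and NKD1 apart from LGR5 and SP5. The standard deviation of log2 values within the lines was 1.68 for NKD1, 0.88 for TCF7 and 0.83 for ZNRF3. Relative to the value that the fit gives for features of the same abundance, it was 6.73, 6.34 and 7.18 times as large, at percentiles 99.4, 99.3 and 99.5 of the 21703 features tested. LGR5, at 0.07, was at percentile 14.7 and SP5, at 0.16, at percentile 12.1. The high libraries were shared in part. ZNRF3 and TCF7 were highest in SW480-45 replicate 1 and lowest in SW480-45 replicate 3, the library in which NKD1 was highest. Among the control libraries, ZNRF3 and NKD1 were highest in replicate 1 and TCF7 in replicate 2. The spread was not particular to these 3 genes. MYC and LGR4, other genes of the pathway that were singled out after their values were seen, were at percentiles 99.9 and 99.3. MYC, a transcription factor and classic Wnt target, had 1979, 8721 and 7177 normalized counts in SW480-45 and 11556, 2145 and 7767 in SW480-NC (log2 fold change −0.21, limma adjusted p = 0.912). Features named by the assembler took 24.7% to 25.2% of the reads of a library, a share that varied little. Whether reads of these genes were counted there was not tested.

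**Figure D3:**
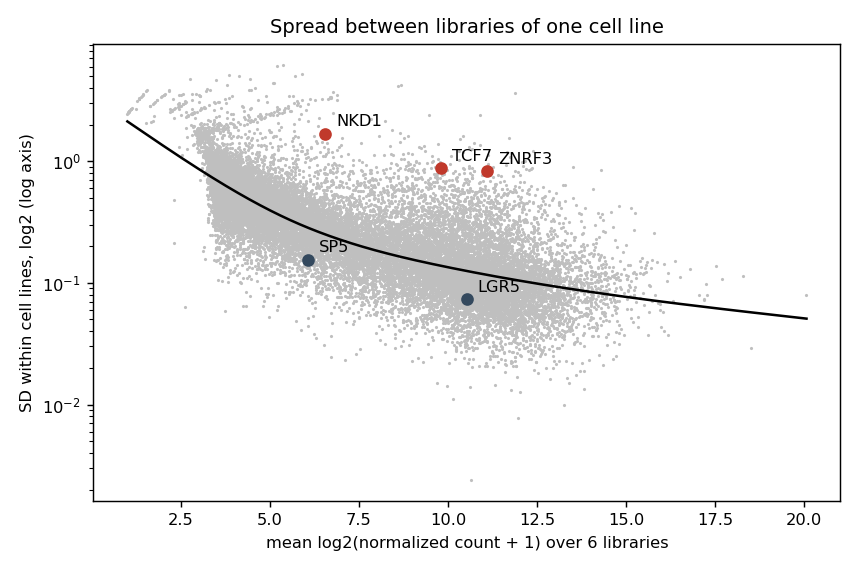
Standard deviation of log2(normalized count + 1) within the cell lines (y axis, log scale) against the mean over the 6 libraries (x axis), with 1 grey point per tested feature and the value expected from abundance as a line. NKD1, TCF7 and ZNRF3, in red, lie far above the line at 1.68, 0.88 and 0.83, and LGR5 and SP5, in dark blue, lie below it.

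**Figure D4:**
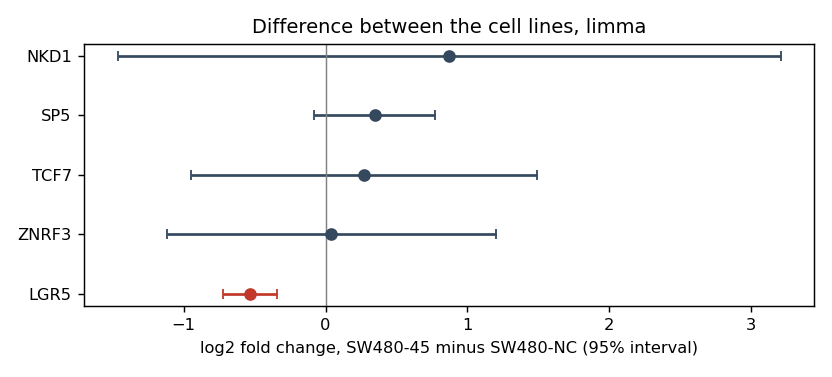
Log2 fold change of SW480-45 over SW480-NC for the 5 tested members, as points with the 95% interval from limma as bars (x axis), with the member that passed an adjusted p of 0.05 in red. The interval of LGR5, from −0.72 to −0.34, is the one that leaves out 0, and those of ZNRF3, TCF7 and NKD1 reach past 1 above 0.

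Other genes of the pathway were read from the same fit, in 7 lists grouped by role. Of 135 genes listed, 98 had a row and 79 were tested, with a median log2 fold change of 0.00. Of these, 4 passed the adjusted threshold in limma, 1 higher and 3 lower, beside 0.802% of all features tested, 0.332% higher and 0.470% lower. All 4 were in the list of other targets. The lists were chosen with earlier results of these data known, so these counts are a description and not a test of the pathway. At an unadjusted p under 0.05 there were 18, of 79, while 16.2% of all features tested reached this. In edgeR 3 of the 79 passed, with 0.627% of all features called, and in DESeq2 6 passed, with 3.48% of all features called.

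In the list of other Wnt targets, 26 of 30 genes were tested, and of those that passed in limma 3 fell and 1 rose. An unadjusted limma p under 0.05 was reached by 10 of the 26, 5 higher and 5 lower, and by 16.2% of all features tested. In edgeR 3 of the 26 passed and in DESeq2 5, with 0.627% and 3.48% of all features called. MMP7, the matrix protease matrilysin, had the largest change of the list, with 12956 ± 441 (SD, n = 3) normalized counts in the control and 5273 ± 276 (SD, n = 3) in the knockdown cells (log2 fold change −1.30, limma adjusted p = 0.000775). FOSL1, a subunit of the AP-1 factor, had 1004, 646 and 728 normalized counts in SW480-45 and 1881, 1674 and 1693 in SW480-NC. It fell by 1.16 on the log2 scale (limma adjusted p = 0.0343). MMP7 and FOSL1 are also among the genes lower in the knockdown cells that the study listed from these libraries. That listing is not independent evidence of their direction. The paper also measured MMP7 by qRT-PCR and reports that the result matched its sequencing. FOSL1 is not among the genes it names for that assay. MET, the receptor of hepatocyte growth factor, fell by 0.34 (limma adjusted p = 0.0408), with mean normalized counts of 30759 ± 1131 (SD, n = 3) in the control and 24236 ± 728 (SD, n = 3) in the knockdown cells.

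EPHB2, a receptor of ephrin B that positions cells along the crypt, rose in the knockdown cells. It had 511, 577 and 492 normalized counts in SW480-45 and 290, 242 and 260 in SW480-NC (log2 fold change 0.99, 95% interval 0.72 to 1.27, limma adjusted p = 0.0191). EPHB2 and LGR5 thus passed in opposite directions. The median log2 fold change of the 26 genes was −0.03, with 9 above 0 and 17 below.

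In the 6 fits that each leave out 1 library, MMP7 passed every time, and EPHB2, FOSL1 and MET in 1 each. EPHB2 passed without SW480-NC replicate 1 (limma adjusted p = 0.0469) and reached at most 0.0813 in the other fits. FOSL1 passed without SW480-45 replicate 1 (limma adjusted p = 0.0138) and reached at most 0.114. MET passed without SW480-NC replicate 3 (limma adjusted p = 0.0496) and reached at most 0.174. The direction of the 4 genes was the same in all 6 fits. Without an intensity trend MMP7 still passed (adjusted p = 0.0371 from limma), and EPHB2, FOSL1 and MET did not (adjusted p of 0.0859, 0.126 and 0.201), nor did MET in edgeR (adjusted p = 0.0542).

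**Figure D5:**
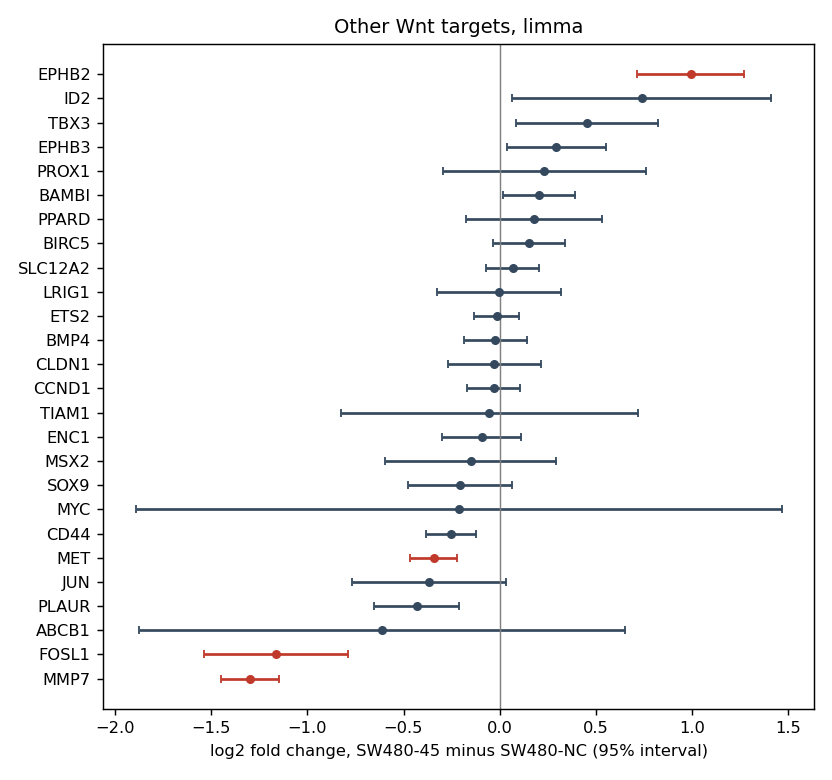
Log2 fold change of SW480-45 over SW480-NC for the 26 tested genes of the list of other Wnt targets, as points with the 95% interval from limma (x axis), with the 4 genes that passed an adjusted p of 0.05 in red. MMP7 at −1.30, FOSL1 at −1.16 and MET at −0.34 lie below 0 and EPHB2 at 0.99 above it. The other genes lie between −0.61 and 0.74.

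Among Wnt ligands and genes of their modification and secretion, 8 of 21 genes were tested and 0 passed in limma, edgeR or DESeq2. An unadjusted limma p under 0.05 was reached by 1 of the 8, and by 16.2% of all features tested. That gene, WNT8B, had 17.8 ± 2.07 (SD, n = 3) normalized counts in SW480-NC and 35.8 ± 5.08 (SD, n = 3) in SW480-45 (limma adjusted p = 0.151). PORCN, the acyltransferase that attaches the lipid of Wnt ligands, had a log2 fold change of 0.31 and WNT2B one of 0.44. Among receptors and R-spondins, 11 of 21 genes were tested and 0 passed in limma, edgeR or DESeq2, with 3 at an unadjusted p under 0.05. These were ROR1 at 0.36, FZD1 at 0.47 and LGR6, a relative of LGR5, at 0.36. LGR4, another R-spondin receptor, was singled out after its values were seen. It had 5956, 5633 and 6286 normalized counts in SW480-45 and 2320, 7277 and 2362 in SW480-NC, with a log2 fold change of 0.80 (limma adjusted p = 0.371). SW480-NC replicate 2 stood above all other libraries. When SW480-NC replicate 1, 2 or 3 was left out, the log2 fold change was 0.52, 1.35 or 0.53, and of the 6 fits that leave out a library only the one lacking SW480-NC replicate 2 passed (limma adjusted p = 0.0102). The log2 fold change was above 0 in all 6 of these fits. As that library is the control library that lay above the knockdown libraries, its removal sets the lines apart by choice, and the pass supports nothing.

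In the destruction complex and its regulators, 13 of 17 genes were tested and 0 passed in limma, edgeR or DESeq2. An unadjusted limma p under 0.05 was reached by 1 of the 13, and by 16.2% of all features tested. CTNNB1, the gene of β-catenin, had 6691, 6959 and 7288 normalized counts in SW480-45 and 6777, 6865 and 7634 in SW480-NC, and the log2 fold change was −0.02 with a 95% interval from −0.19 to 0.14. The levels of the lines overlapped, and the interval leaves out a change as large as that of LGR5. APC had no row under its identifier. DVL2 had a log2 fold change of 0.28, and its paralog DVL1, another Dishevelled protein, one of −0.42. CSNK1D, a casein kinase, stood at 0.11.

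Among nuclear partners of β-catenin, 12 of 18 genes were tested and 0 passed in limma, edgeR or DESeq2. An unadjusted limma p under 0.05 was reached by 2 of the 12, and by 16.2% of all features tested. TLE2, a Groucho corepressor that binds TCF factors, had 34.8, 27.1 and 36.7 normalized counts in SW480-45 and 5.23, 5.79 and 10.6 in SW480-NC. Its log2 fold change stood at 2.09 (limma adjusted p = 0.0723), and DESeq2 gave no adjusted p for it. CTNNBIP1, which blocks the binding of β-catenin to TCF factors, had a log2 fold change of 0.47 and EP300, a coactivator, one of −0.15. Among antagonists, 5 of 19 genes were tested and 0 passed in limma or edgeR, with 1 at an unadjusted p under 0.05. That gene, KREMEN1, a receptor of the DKK proteins, had a log2 fold change of 0.47 (limma adjusted p = 0.0928) and passed in DESeq2 (adjusted p = 0.0067). TRABD2A stood at −0.56 and KREMEN2 at 0.52. Of 9 other markers of intestinal stem cells, 4 were tested and 0 passed in limma, edgeR or DESeq2, and 0 reached an unadjusted p under 0.05. HOPX stood at −0.80, RGMB at −0.19, SMOC2 at −0.55 and CDCA7, the most abundant of the 4, at 0.03 on the log2 scale.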

How the data were processed

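RNA of 3 SW480-45 and 3 SW480-NC libraries was sequenced on an Illumina instrument. The submitters' processing notes name bcl2fastq, HISAT2, DESeq2 and GRCh38, the paper's text names Cuffdiff, and the assembler, counting tool, strand setting and annotation are not given in the sources used here. The authors deposited a signal per feature, read counts divided by one size factor per library. Every value was a whole multiple of one step (100% within 0.01), which gave back the reads.

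For the 21703 features whose mean reached 10, log2(normalized count + 1) was fitted in limma 3.58.1 (R 4.3.3), letting the prior variance follow abundance, and Benjamini-Hochberg adjustment ran over all of these features. The recovered reads were also tested by edgeR 4.0.16 with its quasi-likelihood test and by DESeq2 1.42.0. Other alternatives were a pseudocount of 5, all features, a mean of at least 50, TMM scaling, no intensity trend, the replicate number as a block, and each library left out. The steps were tested on simulated data, where limma had to call most of the large changes added and none in the wrong direction. No demand was set on how many smaller changes, of about the size seen in LGR5, were called. Replicates differed by more than sampling noise. Libraries came from independent experiments per line. Intervals rest on the spread between these libraries after limma moved it toward that of features of the same abundance. For ZNRF3, TCF7 and NKD1 this makes the intervals narrower than their own spread alone would.

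The members and lists were chosen with earlier results of these data known. All 10 members, HPSE, APC, CTNNB1 and, in each list, the genes called and the 3 with the smallest p are named. EPCAM, CDX2, CDH17, LGR4, MYC and CDCA7 were named in addition, after their values were seen. Plots come from matplotlib 3.10.9 (Python 3.11.15).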

Additional observations from a re-analysis of the deposited data

How the results depend on the processing

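Over the 14 alternatives, LGR5 kept its direction in all and its call in 6. The number of members called was 0 without an intensity trend, 0 with the replicate number as a block, and 0 to 0 in the 6 fits that leave out a library, and it was 1 in the other 6. Of the pathway genes, 1 was called without a trend, 1 with the replicate block, and 1 to 2 with a library left out. Of all features, 174 were called as reported, 11 without a trend, 12 with the replicate block, 136 in edgeR, 756 in DESeq2, and from 36 (without SW480-NC replicate 2) to 104 (without SW480-NC replicate 3) with a library left out. The cause was not tested. Same-numbered libraries of the 2 lines did not deviate together (r of −0.02 to 0.01 across features, which are not independent replicates), so the block pairs numbers alone, and its limma adjusted p was 0.185 for LGR5 and 0.0610 for KRT20. Directions turned with a library left out: NKD1 to −0.15 without SW480-45 replicate 3, TCF7 to −0.25 without SW480-45 replicate 1, and ZNRF3 to −0.43, −0.22 and −0.18 without SW480-45 replicate 1, SW480-NC replicate 2 and SW480-NC replicate 3. The highest values with a library left out were 1.77 for NKD1, 0.52 for ZNRF3 and 0.82 for TCF7. With the longest transcript as the length, 4 of the 6 members kept their place in the order of SW480-NC means, and the order of SW480-45 means was the same. Depth limits NOTUM, at 2 or 3 reads a library, and the spread between libraries limits ZNRF3, TCF7 and NKD1.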
